A study of Mus musculus with 6 samples.

Results

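Messenger RNA of 8 plasma membrane amino acid transporters was measured in gastrocnemius muscle of male C57BL/6J mice. The genes were Slc38a1, Slc38a2, Slc38a4, Slc1a5, Slc7a5, Slc7a8, Slc3a2 and Slc7a1, chosen by name as a family, and they are 8 of the 18193 genes that the platform annotation names through a probe set with 1 gene symbol. They were read by 15 of 34945 such probe sets, and each gene is represented by its brightest probe set (by mean log2 signal) while the others served as a check. The 6 arrays each held RNA pooled within 1 group, and how many animals made up a pool is not stated. The groups were HF+SFC+ALA at 24 h and at 4 h of fasting, HF at 24 h and at 4 h, and Control at 24 h and at 4 h. HF was a diet with 60 kcal% fat, HF+SFC+ALA the same diet with sodium ferrous citrate (an iron salt, 0.023% by weight) and 5-aminolevulinic acid phosphate (a heme precursor, 0.2% by weight), and Control a diet with 10 kcal% fat. All mice began at 6 weeks of age and ate their diet for 15 weeks, which gives 21 weeks, whereas the sample labels state an age of 21 months. Every value is a signal intensity on a linear scale, and differences are on the log2 scale.

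These transporters carry amino acids across the cell surface and so set how much substrate reaches protein synthesis and the amino acid sensors of the mTORC1 kinase. Members of the SLC38 family import small neutral amino acids such as alanine and glutamine together with sodium, and Slc1a5 exchanges neutral amino acids including glutamine. Slc7a5 and Slc7a8 encode light chains that exchange large neutral amino acids such as leucine once they are bound to the heavy chain encoded by Slc3a2, and Slc7a1 takes up arginine and lysine. In cultured cells several of them, Slc38a2 and Slc7a5 among them, are induced when amino acids run short, through the transcription factor ATF4.

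The promoters of Slc38a2 and Slc38a4 are shown because these genes moved together with fasting. Each line is the 250 bases before an annotated start site, 5′ to 3′ on the minus strand of chromosome 15, from RefSeq on GRCm38.p6. Capitals mark a GC box (GGGCGG) or a CCAAT box (CCAAT), searched on both strands, and no marked match overlaps another motif. The windows lie at chr15:96699729-96699978 for Slc38a2, and at chr15:97055957-97056206, chr15:97031214-97031463 and chr15:97020360-97020609 for the 3 starts of Slc38a4.
Slc38a2: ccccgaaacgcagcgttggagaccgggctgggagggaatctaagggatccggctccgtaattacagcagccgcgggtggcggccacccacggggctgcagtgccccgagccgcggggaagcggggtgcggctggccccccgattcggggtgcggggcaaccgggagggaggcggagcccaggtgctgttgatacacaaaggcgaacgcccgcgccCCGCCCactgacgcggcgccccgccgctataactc
Slc38a4 start 1: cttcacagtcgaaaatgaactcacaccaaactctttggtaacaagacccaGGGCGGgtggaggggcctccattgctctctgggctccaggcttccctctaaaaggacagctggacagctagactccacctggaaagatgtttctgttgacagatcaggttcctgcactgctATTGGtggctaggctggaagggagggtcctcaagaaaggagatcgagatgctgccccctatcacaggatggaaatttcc
Slc38a4 start 2: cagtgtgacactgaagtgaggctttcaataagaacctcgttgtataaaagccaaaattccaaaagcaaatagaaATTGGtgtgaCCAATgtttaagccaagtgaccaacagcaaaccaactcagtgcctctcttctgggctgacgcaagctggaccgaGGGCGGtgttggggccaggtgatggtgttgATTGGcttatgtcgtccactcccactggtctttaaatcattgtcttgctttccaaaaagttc
Slc38a4 start 3: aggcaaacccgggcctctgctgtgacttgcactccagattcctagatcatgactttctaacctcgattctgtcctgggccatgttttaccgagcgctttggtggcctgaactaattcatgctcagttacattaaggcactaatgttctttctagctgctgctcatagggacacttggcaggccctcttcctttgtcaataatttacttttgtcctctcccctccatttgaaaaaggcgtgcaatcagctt

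The Slc38a2 window was 72% G and C with 30 CpG dinucleotides, whereas the Slc38a4 windows were 52.8%, 46% and 47.2% G and C with 3, 5 and 5 CpG. The medians over 32851 windows of the same length were 52.4% and 6 CpG. A GC box stood in the Slc38a2 window and in the first and second Slc38a4 windows, as in 32.7% of all windows. A CCAAT box occurred 1 and 3 times in the first and second Slc38a4 windows and not in that of Slc38a2, and 33.8% of all windows held one. The core of the composite element bound by C/EBP and ATF proteins (TGATGNAAN, both strands) was in none of the 8 windows of Slc38a2, Slc38a4, Slc7a8, Slc3a2 and Slc7a1, the 5 genes matched by symbol, and in 3.44% of all windows. The search covered only the 250 bases before each start site, so an element after a start or farther upstream would be missed. Windows of Slc38a1, Slc7a5 and Slc1a5 were not used here. Which start of Slc38a4 was in use in these pools was not measured.

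All 8 genes lay above the signal filter, which was the median over probe sets that are not controls (log2 5.88, a signal of 58.9). Slc38a1 was closest to it, 0.73 log2 units above, with signals from 83.9 to 117 over the pools, followed by Slc7a5 at 1.08 above, with 81.7 to 166. These probe sets have the least room above background. The other genes were 1.89 to 7.25 log2 units above, with Slc38a2 and Slc38a4 the farthest from background. Among the 15 probe sets 12 passed the filter, and 1 secondary probe set each of Slc38a1, Slc1a5 and Slc7a1 did not, with 3, 1 and 2 pools below a floor of 26.4.

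Each array had been scaled to a trimmed mean of 500.004, with array medians of 63 to 69.5. All 12 muscle fibre markers were above the filter, the dimmest averaging 8252. The actin control probe sets had a 3′ to 5′ signal ratio of 1.52 in the HF pool at 4 h and of 1.08 to 1.22 in the other pools. No group had a replicate array. The p-values come from a model that adds a diet term to a fasting term. They measure only the spread between pools that this model leaves, biological or technical. For each gene limma moderated this spread toward that of other genes of like signal (2 residual and 7.27 prior degrees of freedom). In bulk tissue, fewer cells of a type and less RNA per cell cannot be told apart.

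**Figure D1:**
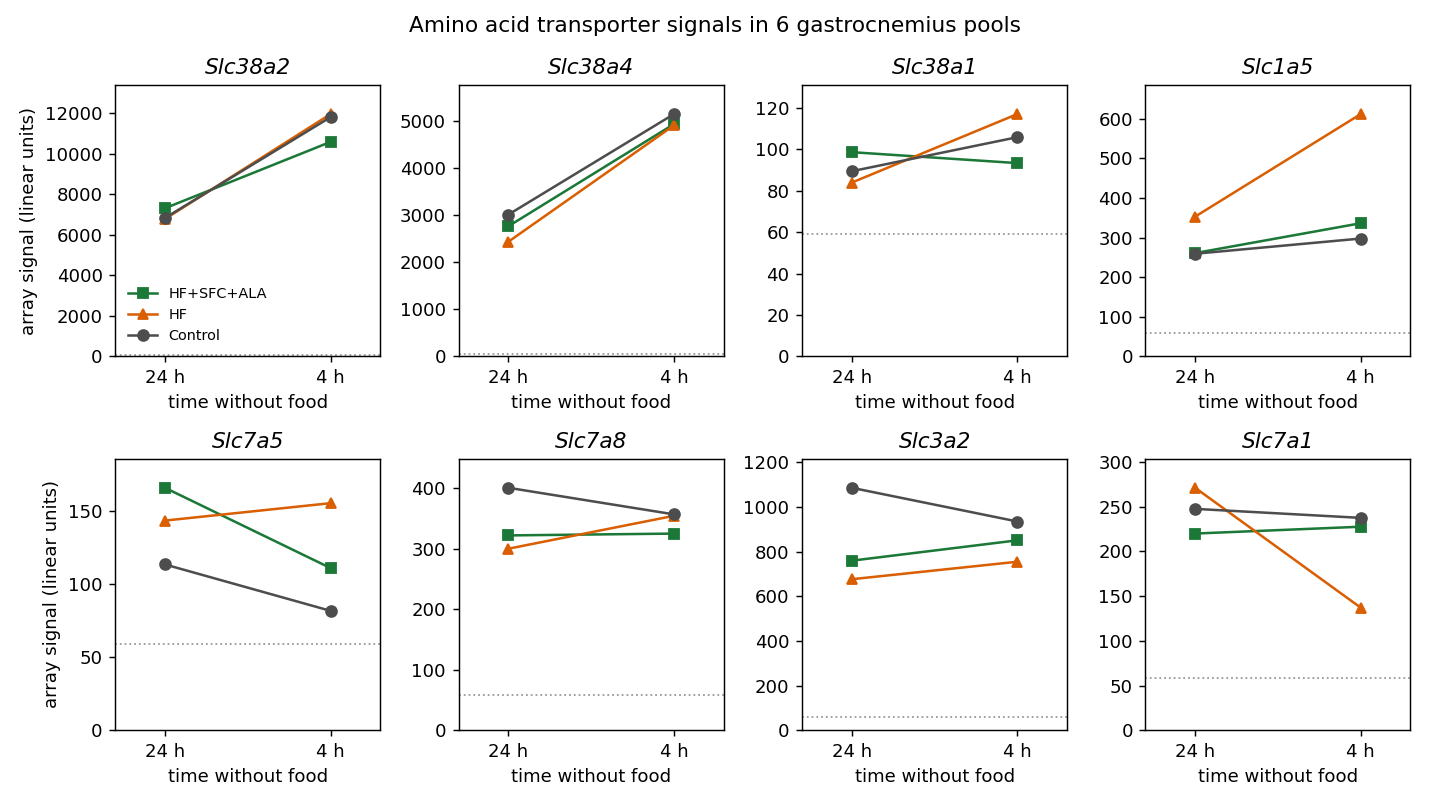
Signal (linear units) of each transporter in the 6 pools, with 24 h to the left of 4 h and a line for each diet; the dotted line is the signal filter at 58.9. Slc38a2 and Slc38a4 were lower in every 24 h pool than in every 4 h pool, and Slc38a1 and Slc7a5 lay closest to the filter.

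The first comparison was 24 h against 4 h of fasting. Slc38a2 and Slc38a4, both importers of small neutral amino acids, fell, and the other 6 transporters did not pass the test. Slc38a2 had a signal of 7318 in the HF+SFC+ALA pool, 6788 in the HF pool and 6838 in the Control pool at 24 h, against 10596, 11970.2 and 11819.7 in the same diets at 4 h. The highest 24 h pool was below the lowest 4 h pool, and the diets gave log2 differences of -0.53, -0.82 and -0.79 in that order. The fitted difference was -0.71 ± 0.074 (SE over 6 pools, 1.64-fold lower, 95% interval -0.88 to -0.55, limma adjusted p = 0.00282).

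Slc38a4, which in the mouse is an imprinted gene, had a signal of 2769.95 in the HF+SFC+ALA pool, 2441 in the HF pool and 3018 in the Control pool at 24 h, against 4945, 4918 and 5158 at 4 h. Its pools at 4 h lay close together and those at 24 h were all lower, with log2 differences of -0.84, -1.01 and -0.77. The fit gave -0.87 ± 0.073 (1.83-fold lower, 95% interval -1.04 to -0.71, limma adjusted p = 0.00146). By p-value Slc38a4 ranked 4 and Slc38a2 ranked 16 of 11526 genes tested, and 0.79% and 1.88% of genes had a larger absolute difference. Of these genes, 2.41% were called in either direction, 1.49% higher and 0.92% lower, and in 8.36% every 24 h pool lay below every 4 h pool.

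Secondary probe sets of these genes did not all follow. The other Slc38a4 probe set had a signal of 2257, 1852 and 2423 in the HF+SFC+ALA, HF and Control pools at 24 h, against 2528, 2540.26 and 2617 at 4 h. All 3 diets were thus lower at 24 h, but the difference was -0.24 ± 0.088 and did not pass (limma adjusted p = 0.209 with every probe set fitted). The other Slc38a2 probe sets were dimmer, with signals of 395 to 571 and 101 to 156, and gave 0.033 ± 0.15 and 0.090 ± 0.21, without 1 direction across diets (adjusted p = 0.944 and 0.882). Averaging the probe sets of a gene therefore left -0.20 for Slc38a2 (adjusted p = 0.402) and -0.56 for Slc38a4 (adjusted p = 0.0672). Both calls were also lost with no filter on signal (limma adjusted p = 0.322 each) and without the intensity trend (0.28 each). Leaving out any 1 pool gave -0.80 to -0.66 for Slc38a2 and -0.92 to -0.805 for Slc38a4. Such a fit keeps only 1 pool of a diet, so its p-values are left out.

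Markers of other cells above the filter were counted as well. For 24 h against 4 h limma called 0 of 7 endothelial, 3 Schwann cell, 6 adipocyte and 1 red blood cell markers. Of these, 4, 2, 1 and 0 in that order had a positive difference. At 24 h limma called 2 of 5 smooth muscle, 1 of 2 lymphocyte, 1 of 6 fibroblast and 1 of 8 macrophage markers lower. It called none higher in these lists, beside 0.92% of all genes called lower and 1.49% higher. By sign alone, 1 of 5, 0 of 2, 3 of 6 and 2 of 8 in that order had a positive difference. The summed signal of these lists ran from 36265 to 43491 at 24 h against 41552 to 43949 at 4 h for smooth muscle, from 1086 to 1155 against 1327 to 1719 for 5 lymphocyte genes, from 26268 to 32114 against 26577 to 32038 for fibroblasts and from 2677 to 4663 against 2973 to 4392 for macrophages. Most of the smooth muscle sum came from Des, which the muscle fibre list also holds, and without it the sum ran from 7381 to 10771 at 24 h against 10013 to 13553 at 4 h, lower at 24 h in each diet (a sum chosen after seeing the data). Most of the lymphocyte sum came from Ighm, the marker called in that list, and only 2 of its 5 genes were above the filter. The muscle fibre list ran from 430110.0 to 492360.0 at 24 h and from 415160.0 to 466770.0 at 4 h, with 0 of 12 called (limma). Their part in the lower Slc38a2 and Slc38a4 signal was not tested.

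**Figure D2:**
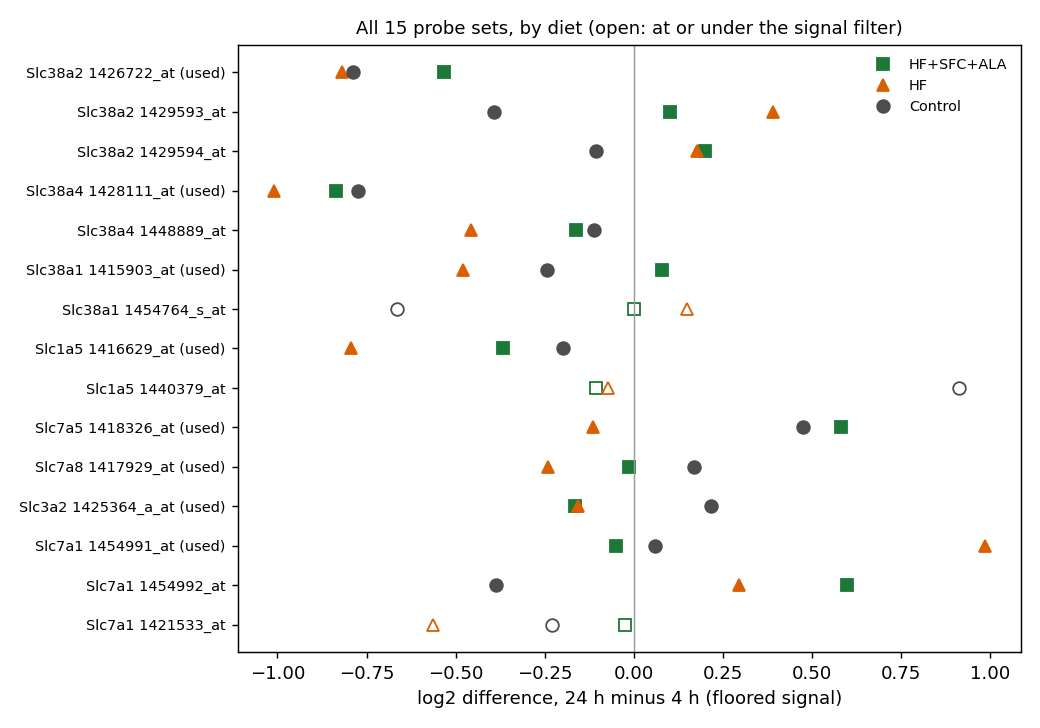
Log2 difference between the 24 h and the 4 h pool of each diet for all 15 probe sets, with open symbols for those at or under the signal filter. The probe sets used for Slc38a2 and Slc38a4 are left of 0 in all 3 diets, the second Slc38a4 probe set is so by less, and the dimmer Slc38a2 probe sets lie on both sides.

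The third SLC38 member, Slc38a1, stood at -0.21 ± 0.26 (adjusted p = 0.729), with signals of 98.6, 83.9 and 89.4 in the HF+SFC+ALA, HF and Control pools at 24 h against 93.3, 117 and 106 at 4 h. Its times overlapped, and no gap between neighbouring pools exceeded 0.316, its SD after limma moderated it toward genes of like signal. The 95% interval of -0.80 to 0.37 includes differences as large as that of Slc38a2, so this dim probe set could not separate a like fall from none.

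Slc1a5, the exchanger of neutral amino acids, had signals of 261, 353 and 259 in the HF+SFC+ALA, HF and Control pools at 24 h, against 336, 612 and 298 at 4 h. Each diet had less signal at 24 h, as did 18.3% of all genes, but the times overlapped because the HF pool at 24 h was above the 4 h pools of HF+SFC+ALA and Control. The fit gave -0.45 ± 0.15 and did not pass (adjusted p = 0.166). Its dimmer probe set, under the filter, stood at -0.105, -0.072 and 0.91 in the same diets.

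The leucine exchanger subunits gave no shared direction with fasting. Slc7a5 stood at 0.31 ± 0.24 (95% interval -0.22 to 0.85, adjusted p = 0.553), with 0.58 in HF+SFC+ALA, -0.115 in HF and 0.47 in Control. Slc7a8 stood at -0.029 ± 0.14 (-0.34 to 0.29, adjusted p = 0.944) and Slc3a2 at -0.035 ± 0.11 (-0.28 to 0.21, adjusted p = 0.911). Their intervals leave out a fall as large as that fitted for Slc38a2 or Slc38a4. Slc7a1, the arginine and lysine transporter, stood at 0.33 ± 0.22 (adjusted p = 0.486). Of the 8 members 6 had a negative and 2 a positive difference, with a median of -0.125 beside 0.0083 over all genes tested, of which 51.7% were positive, and 3 had an unadjusted p under 0.05 where 17.7% of all genes did.

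The second comparison was HF against Control over both fasting times. None of the 8 transporters passed the limma test, beside 0.885% of all genes called (0.564% higher and 0.321% lower), and 2 members had an unadjusted p under 0.05 where 14.7% of all genes did. Slc1a5 had the highest difference, at 0.74 ± 0.19 (1.67-fold, 95% interval 0.32 to 1.16, adjusted p = 0.124). Its signal of 353 and 612 in the HF pools at 24 h and 4 h was above 259 and 298 in the Control pools. The HF pools thus lay above both Control pools, as in 19.7% of all genes, with a difference of 0.445 at 24 h and 1.04 at 4 h. The dimmer Slc1a5 probe set gave 0.57 at 24 h and 1.55 at 4 h, with the Control pool at 4 h below the floor.

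Slc3a2, the heavy chain, lay on the other side, with a signal of 677 and 755 in the HF pools at 24 h and 4 h, against 1086 and 935 in the Control pools. Both HF pools were below both Control pools, as in 18.9% of all genes, and the fit gave -0.50 ± 0.13 (1.41-fold lower, 95% interval -0.79 to -0.20, adjusted p = 0.142). Its partner Slc7a5 had 143 and 155 in HF against 113 and 81.7 in Control, which is 0.63 ± 0.29 (-0.021 to 1.29, adjusted p = 0.349). The light chain Slc7a8 had 299.7 and 354 in HF against 400.4 and 356 in Control, which is -0.21 ± 0.17 (adjusted p = 0.593). The heavy chain and its light chain Slc7a5 therefore had fitted values of opposite sign, neither of which passed.

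Of the SLC38 members, Slc38a2 and Slc38a1 had fitted values near 0 for HF against Control, and Slc38a4 was lower in HF at both times without passing. Slc38a2 stood at 0.0038 ± 0.091 with an interval of -0.20 to 0.21, and Slc38a4 at -0.19 ± 0.090 (-0.39 to 0.015, adjusted p = 0.37). The dimmer Slc38a2 probe sets gave -0.14 ± 0.19 and 0.49 ± 0.26 and the other Slc38a4 probe set -0.215 ± 0.11, none passing. Slc38a1 stood at 0.027 ± 0.32, and its wide interval of -0.69 to 0.74 includes sizeable differences of either sign. Slc7a1 had 271 and 137 in the HF pools at 24 h and 4 h, against 247 and 237 in the Control pools, and stood at -0.33 ± 0.27 (adjusted p = 0.6). Its second probe set above the filter had the other sign, at 0.195 ± 0.26. Single pools moved the values of Slc1a5 and Slc3a2 in both directions. Slc1a5 stood at 0.998 ± 0.21 without the HF pool at 24 h and at 0.93 ± 0.25 without the Control pool at 24 h. It stood at 0.49 ± 0.23 when the 4 h pool of HF was left out. Slc3a2 stood at -0.68 ± 0.18 without the Control pool at 4 h and at -0.31 ± 0.18 without the Control pool at 24 h. The SE were larger than with all pools (0.19 for Slc1a5 and 0.13 for Slc3a2). Each of these fits keeps 1 pool of a diet, so only values are given.

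**Figure D3:**
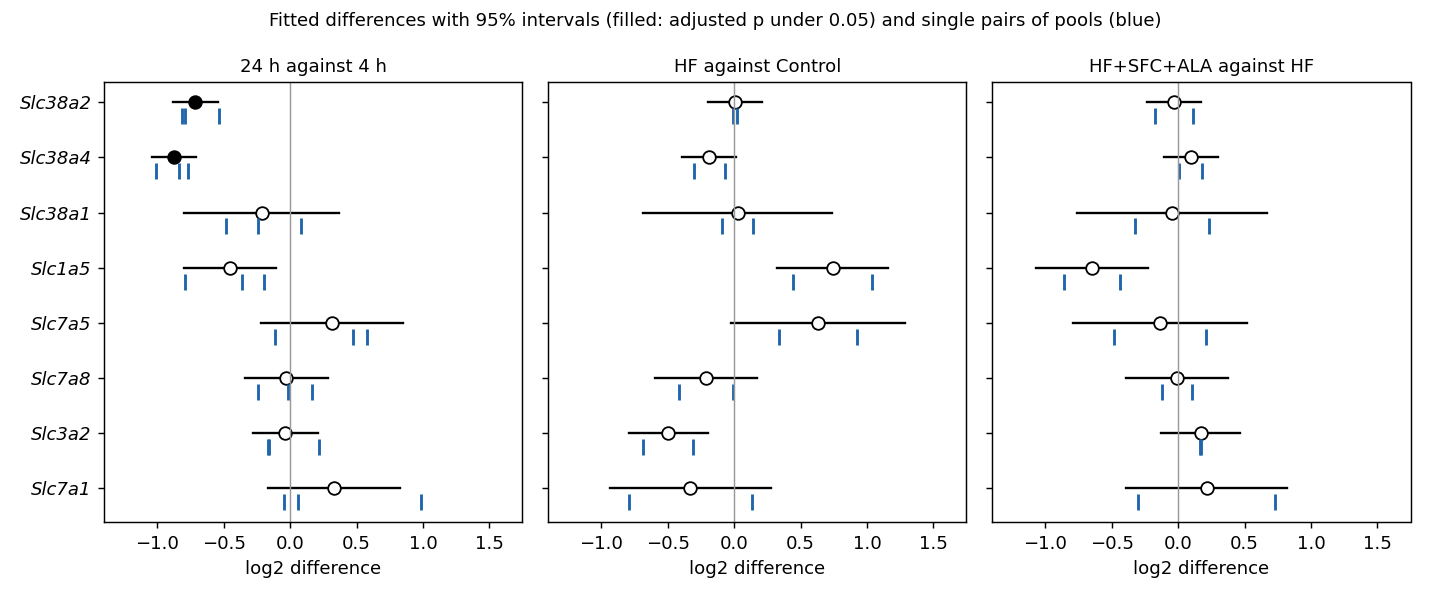
Fitted log2 difference of each transporter in the 3 comparisons with its 95% interval, filled where the adjusted p was under 0.05, and the differences between single pairs of pools as blue marks. Only Slc38a2 and Slc38a4 are filled, both for 24 h against 4 h, and Slc1a5 has intervals on opposite sides of 0 in the comparisons of diets.

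The third comparison was HF+SFC+ALA against HF, the effect of the iron salt with the heme precursor on the high-fat diet. No transporter passed the limma test, and 0% of all 11526 genes did, while 1 member and 5.08% of all genes had an unadjusted p under 0.05. That member was Slc1a5, with a signal of 261 and 336 in the 24 h and 4 h pools of HF+SFC+ALA, against 353 and 612 in the HF pools. Both supplemented pools were below both HF pools, as in 15.8% of all genes, and close to the Control pools given above. The fit gave -0.65 ± 0.19 (1.57-fold lower, 95% interval -1.07 to -0.23, adjusted p = 0.72). Without the HF pool at 4 h it stood at -0.39 (adjusted p = 0.713), and 0 members then had an unadjusted p under 0.05 in limma. The dimmer Slc1a5 probe set gave -0.69 at 24 h and -0.66 at 4 h. This comparison and HF against Control share the HF pools, so a high HF value alone gives the differences opposite signs.

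The other members lay between -0.14 and 0.22 for HF+SFC+ALA against HF. Slc3a2 had 759.6 and 851 in the 24 h and 4 h pools of HF+SFC+ALA, against 677 and 755 in the HF pools, which is 0.17 ± 0.13 (adjusted p = 0.973). Slc38a4 stood at 0.095 ± 0.090 with an interval of -0.11 to 0.30 and Slc38a2 at -0.034 ± 0.091 with an interval of -0.24 to 0.17, so that a difference as large as their fasting difference lies outside both intervals. Slc7a5 (-0.14 ± 0.29), Slc7a8 (-0.011 ± 0.17), Slc38a1 (-0.047 ± 0.32) and Slc7a1 (0.22 ± 0.27) each had an adjusted p of 0.975 or more. The second Slc7a1 probe set above the filter gave 0.0125 ± 0.26. Slc38a2, Slc7a5, Slc7a8, Slc38a1 and Slc7a1 each had opposite signs at 24 h and 4 h in this comparison, with 0.11 at 24 h and -0.18 at 4 h for Slc38a2.

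Some markers of other cells rose in HF against Control. Of 8 listed adipocyte markers 6 were matched, all above the filter. Limma called 3 of the 6 higher in HF against Control (Adipoq, Lep and Cidec), beside 0.564% of all genes, with a list median of 2.04. For HF+SFC+ALA against HF the list median was -1.28, beside -0.00485 over all genes tested, with 5 of 6 negative and none called by limma. For 24 h against 4 h the list median was -0.74. Pparg, the nuclear receptor of fat cell differentiation, had the other sign in both diet comparisons, at -0.16 (HF against Control) and 0.53 (HF+SFC+ALA against HF), passing in neither. Adipoq, the adipocyte hormone adiponectin, had a signal of 796 and 1941 in the 24 h and 4 h pools of HF+SFC+ALA, 4280.0 and 4637 in the HF pools and 577 and 901 in the Control pools. The summed signal of the 6 markers was 29250.0 and 28827 in HF+SFC+ALA, 37104 and 32933 in HF and 27043 and 23051 in Control at 24 h and 4 h, most of it from Fabp4. No marker was at 0, and Lep in the Control pool and Retn in the Control pool were below the floor at 24 h. Limma also called 3 of 6 fibroblast markers higher in HF against Control (Dpt, Col1a1 and Col3a1, list median 0.56). The same held for 1 of 5 smooth muscle markers (Tagln, list median 0.44). The summed fibroblast signal was 26881 and 30701 in HF+SFC+ALA, 32114 and 32038 in HF and 26268 and 26577 in Control at 24 h and 4 h. Of 8 macrophage markers none passed limma for HF against Control, and 8 were positive with a median of 0.62, beside -0.000205 over all genes tested. Their summed signal was 3419.5 and 4392 in HF+SFC+ALA, 4663 and 4049 in HF and 2677 and 2973 in Control at 24 h and 4 h. The part of RNA from these cells in the Slc1a5 differences was not tested, nor was that of the actin ratio of 1.52 in the HF pool at 4 h, where Slc1a5 was highest.

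Slc1a5 also had the widest range over the pools, at 2.36-fold. Among the other genes tested, those with the closest pattern by root mean square difference of centred log2 signal over 6 pools were Hacd2 (0.102), Tuba1a (0.118), Fras1 (0.124), Lrg1 (0.129) and Rab3il1 (0.131). Hacd2 encodes a dehydratase of fatty acid elongation, Tuba1a an alpha-tubulin, Fras1 a basement membrane protein and Lrg1 a secreted glycoprotein. Hacd2 had signals of 217, 338 and 234 in the HF+SFC+ALA, HF and Control pools at 24 h and of 333, 497 and 257 at 4 h. Like Slc1a5, each had its highest signal in the HF pool at 4 h. They were chosen for this likeness, which fixes their directions, so their values are a description with no test.

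**Figure D4:**
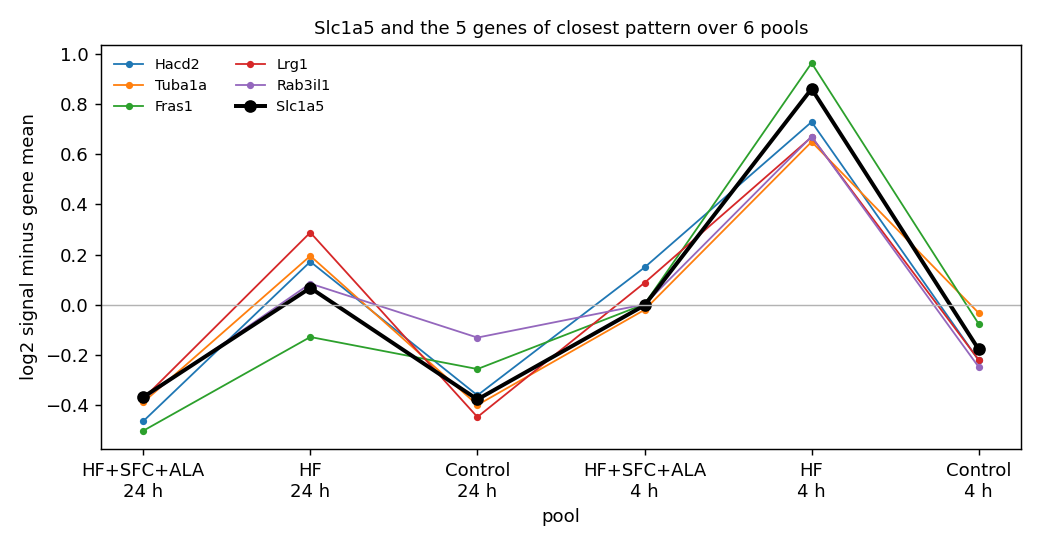
Log2 signal minus the gene's own mean in the 6 pools for Slc1a5 (black) and the 5 genes whose pattern was closest by root mean square difference (0.102 to 0.131). All 6 lines peak in the HF pool at 4 h.

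Other amino acid transporters set these values in context. Of 46 listed genes 44 were matched and 26 were above the filter. For 24 h against 4 h limma called none higher and 1 lower, beside 1.49% and 0.92% of all genes. The median was 0.024 beside 0.0083 over all genes. The gene that fell was Slc16a10, a transporter of aromatic amino acids, with a signal of 805, 752 and 694 in the HF+SFC+ALA, HF and Control pools at 24 h, against 1054, 1198 and 1343 at 4 h (-0.67 ± 0.12, adjusted p = 0.0216). Every 24 h pool was below every 4 h pool, as for Slc38a2 and Slc38a4. None of the 26 passed limma for HF against Control (median 0.0064) or HF+SFC+ALA against HF (median -0.044). Values without a call were -0.94 ± 0.26 for Slc7a2, a cationic amino acid transporter, 0.81 ± 0.37 for the glutamate transporter Slc1a3 and 0.52 ± 0.12 for the taurine transporter Slc6a6 in HF against Control. Slc38a7 and Slc38a6 stood at -0.16 ± 0.21 and -0.13 ± 0.25 in the same comparison. For HF+SFC+ALA against HF, Slc7a10, a transporter of small neutral amino acids that is expressed in fat cells, stood at -1.93 ± 0.42 and Slc1a4 at -0.79 ± 0.41, and the glycine transporter Slc6a9 stood at -0.49 ± 0.15 for 24 h against 4 h, all without passing. Slc7a10 had a signal of 23.1, 173 and 55.8 in the HF+SFC+ALA, HF and Control pools at 24 h and of 88.0, 195 and 85.1 at 4 h, highest in HF at both times. Its HF+SFC+ALA pool at 24 h was below the floor, which sets the size of the difference there.

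Genes that act on transporters or read amino acids were counted in the same fits. For 24 h against 4 h limma called 1.49% of all genes higher. It called 1 of 35 genes of amino acid sensing and mTORC1 control higher (Eif4ebp1, an inhibitor of translation, 0.78 ± 0.13, adjusted p = 0.0213), with a median of -0.028. In the GCN2 and ATF4 list 1 of 23 was called higher (Ppp1r15a, which restores translation by dephosphorylating eIF2alpha, 0.75 ± 0.13, adjusted p = 0.0243), with a median of -0.044. Of 10 ubiquitin ligases and arrestins that act on membrane proteins 2 were called higher, Arrdc3 (0.67 ± 0.12, adjusted p = 0.0301) and Txnip (0.31 ± 0.065, adjusted p = 0.0465). In that list 9 of 10 had a positive difference, where 51.7% of all genes did, with a median of 0.16. For HF against Control, Ppp1r15a (-0.94 ± 0.16, adjusted p = 0.0346), Arrdc3 (-1.08 ± 0.15, adjusted p = 0.0164) and Arrdc2 (-0.86 ± 0.098, adjusted p = 0.00741) were called lower, where 0.321% of all genes were. No gene of the sensing list passed limma in that comparison. None of the genes in these lists passed for HF+SFC+ALA against HF.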

How the data were processed

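The values are signal intensities per probe set that the authors deposited. Per the submitters' processing notes they come from MAS5, with version and settings not given in the sources used here. Per the labels' protocols, biotinylated cRNA was made from total RNA with a 3′ IVT kit, and per the series' design text RNA was pooled within each group. Of 45101 probe sets 64 controls were left out, and 34945 of the others had 1 gene symbol, 932 several and 9160 none listed. For 34741 the symbol was brought up to date by its gene ID.

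Genes with a mean log2 signal above 5.88 (the median) were kept, 11526 in all. Before log2, any signal below the 30th percentile (26.4) was raised to it. In limma 3.58.1 (R 4.3.3), diet and fasting time entered 1 model as added terms (eBayes with an intensity trend, 2 residual and 7.27 prior degrees of freedom), with Benjamini-Hochberg adjustment over all genes and calls at 0.05. In simulated data over 11526 genes, 2-fold changes were recovered in 73.9% (24 h against 4 h), 63.8% (HF against Control) and 67% (HF+SFC+ALA against HF) of the genes. Of the calls, 5.69% to 5.98% were false. The simulated spread came from the fitted model and effects were only added, so fasting effects that differ between diets were not simulated. Figures were drawn with matplotlib 3.10.9.

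The members, the lists and the tests were chosen with earlier results of these data known. Named genes are the 8 members, listed genes past the threshold, the 2 largest same-sign differences of each transporter list without a call, and the 5 genes closest in pattern to the member of widest range. Alternatives were quantile normalization, other filters and floors, a pseudocount, other uses of the probe sets, no intensity trend, 1 factor alone and leaving out each pool. The number of arrays limits the precision.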

Additional observations from a re-analysis of the deposited data

Results flagged for a closer look

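Slc7a1 was picked out in both comparisons below because single pairs of pools moved in opposite ways by an amount that differed by at least 1 log2 unit. For 24 h against 4 h it stood at 0.985 in HF and at -0.049 in HF+SFC+ALA, a gap of 1.03. For HF+SFC+ALA against HF it stood at -0.30 at 24 h and at 0.73 at 4 h, again a gap of 1.03. Each value is 1 pool against 1 pool, so neither difference was tested. Both rest on the HF pool at 4 h, with a signal of 137 against 220 to 271 in the other 5 pools. The second Slc7a1 probe set above the filter read 190 there and 161 to 262 in the other pools. For 24 h against 4 h it gave 0.295 in HF, 0.60 in HF+SFC+ALA and -0.39 in Control. For HF+SFC+ALA against HF it gave 0.16 at 24 h and -0.14 at 4 h, each of opposite sign to the flagged probe set.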

How the results depend on the processing

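The labels give no replicate numbers, and the model compared the fasting times within diets and the diets within fasting times. Of 351 recomputed member differences, 318 kept direction and side of the threshold, 6 lost the call, 2 gained it and 25 changed sign with no call in either setting. The lost calls were those of Slc38a2 and Slc38a4 for 24 h against 4 h, and the count of 2 members was 0 with no filter on signal, with the probe sets averaged and without the trend (2, 1 and 3 members at an unadjusted p under 0.05 in limma). The gained calls, Slc1a5 and Slc3a2 for HF against Control, came without 1 Control pool, where their SE was larger than with all pools. Over all genes, 24 h against 4 h gave 278 calls, and 0 with no filter (2026 unadjusted), 18 with probe sets averaged, 0 without the trend (1639 unadjusted), 60 with fasting time alone in the model and 59 to 455 without 1 pool. HF against Control gave 102 calls, and 0 with no filter (1993 unadjusted), 1 with probe sets averaged, 0 without the trend (1348 unadjusted), 0 with diet alone (982 unadjusted) and 47 to 592 without 1 pool. HF+SFC+ALA against HF gave 0 calls (585 unadjusted), 6 with the filter at the 65th percentile and 0 to 109 without 1 pool. For 24 h against 4 h the counts were 452 and 455 without the Control pool at 24 h and at 4 h, and 59 when 1 HF+SFC+ALA pool of either time was left out. For HF against Control they were 279 and 592 without the Control pools at 24 h and 4 h, 275 without HF at 4 h, 47 without HF at 24 h, and 59 and 58 without HF+SFC+ALA at 24 h and 4 h. For HF+SFC+ALA against HF they were 109 and 107 without the Control pools. In the lists of other transporters, sensing, ATF4 response and ubiquitin ligases together, 5 genes were called for 24 h against 4 h, 0 with no filter, with probe sets averaged or without the trend (19, 21 and 18 unadjusted), 1 with fasting time alone and 1 to 8 without 1 pool. For HF against Control 3 were called, 5 with the filter at the 65th percentile, 0 with no filter, with probe sets averaged, without the trend or with diet alone (16, 21, 19 and 21 unadjusted) and 1 to 15 without 1 pool, and for HF+SFC+ALA against HF 0 to 2 without 1 pool. The cause of these changes was not tested.

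The sign changes were of differences that did not pass, the widest of them for Slc7a1. Quantile normalization gave -0.059 for Slc38a1 in HF against Control, and 0.0015 for Slc38a1 and 0.0077 for Slc7a8 in HF+SFC+ALA against HF, where averaging probe sets gave 0.0033 for Slc38a2 and -0.014 for Slc7a1. Without 1 pool, 24 h against 4 h ran from -0.16 to 0.029 for Slc3a2 and from -0.13 to 0.077 for Slc7a8. HF against Control ran from -0.17 to 0.225 for Slc38a1, -0.075 to 0.082 for Slc38a2 and -0.82 to 0.16 for Slc7a1. HF+SFC+ALA against HF ran from -0.27 to 0.17 for Slc38a1, -0.17 to 0.10 for Slc38a2, -0.0080 to 0.20 for Slc38a4, -0.46 to 0.18 for Slc7a5, -0.17 to 0.15 for Slc7a8 and -0.275 to 0.705 for Slc7a1. Signal over background limits Slc38a1 and Slc7a5 most.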
